A study of Mus musculus with 20 samples.

Results

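The odorant receptor genes of mouse chromosome 17 were followed through cells of the olfactory mucosa that had been sorted by green fluorescent protein (GFP). The 48 members are the array's probe sets whose identifiers place them on chromosome 17 and whose symbols are Olfr followed by a number, with Olfr124 left out, each standing for 1 gene. They made up 48 of 1080 odorant receptor probe sets and of 22206 probe sets for genes. The rule itself uses no measured value.

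An odorant receptor is a G protein-coupled receptor on the cilia of an olfactory sensory neuron, and each mature neuron transcribes a single receptor gene out of the whole repertoire. Binding of an odorant activates the G protein Golf, adenylyl cyclase and a cyclic nucleotide-gated channel. The receptor genes lie in clusters along the chromosomes, and related genes often sit side by side. The large cluster of mouse chromosome 17 is known for lying beside class I genes of the major histocompatibility complex (MHC).

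All mice carried the S100a5-tauGFP reporter, in the clean air controls as well as in the odor group. The reporter follows S100a5, which encodes a calcium sensor of the S100 family and is switched on by activity in olfactory neurons. GFP thus marks neurons with recent activity, while GFP- cells hold every other cell of the mucosa, whatever its type. The animals were of both sexes and 7 to 12 weeks old, and stayed for 40 h in chambers with clean air at 3.1 L/min. From 26 h on they received pulses of 10 s every 20 min, of either an artificial cigarette smoke odor or filtered air (vehicle). Sample labels give that odor, while the series' design text names bourgeonal, and the labels were followed. The mucosa of 3 mice was pooled and sorted into both fractions, which gave 5 odor GFP+, 5 odor GFP-, 5 vehicle GFP+ and 5 vehicle GFP- samples from 10 pools and 30 mice, with 1 array each.

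Values are log2 signals, and a log2 change of 1 is a doubling of the signal. S100a5 itself averaged 16.91 ± 0.29 in GFP+ and 14.76 ± 0.66 in GFP- cells of odor pools, and 16.60 ± 0.32 against 15.30 ± 0.68 in the same fractions of vehicle pools (SD, n = 5 per group). Its change passed the limma test in both conditions (adjusted p = 0.00131 and 0.0368), but in vehicle pools it did not pass without vehicle replicate 2 (log2 change 0.99), 3 (1.14) or 5 (1.31), nor without odor replicate 1 or 3, since both conditions share 1 estimate of the spread. Omp, the marker of mature sensory neurons, averaged 19.32 ± 0.58 in GFP+ and 19.20 ± 0.55 in GFP- cells of odor pools, and 19.17 ± 0.49 and 18.95 ± 0.70 in those of vehicle pools. All 11 measured immune cell markers fell in GFP+ cells in both conditions, by a median of 6.05 on the log2 scale in odor pools and 6.71 in vehicle pools. The log2 of their summed signal lay between 9.80 and 10.23 in GFP+ and between 18.64 and 20.00 in GFP- cells of odor pools, and between 9.89 and 10.41 in GFP+ and between 18.99 and 20.40 in GFP- cells of vehicle pools, and 7 of them in odor and 6 in vehicle pools had GFP+ means no higher than the background range of the array's background controls. Of 9 immature neuron markers 4 fell in each condition, of 7 progenitor markers 3 and of 6 microvillar cell markers 5, while 0 of 8 mature neuron markers passed. Of 6 activity genes of these neurons 3 rose in odor and 4 in vehicle pools. Sustentacular cell markers passed as lower in 0 of 7 and 2 of 7 cases, and Bowman gland markers in 2 of 6 in each condition. Over all probe sets 5.82% fell and 2.07% rose in odor pools, and 6.86% fell and 2.26% rose in vehicle pools. With so few genes, 0 of 8 or 0 of 7 is near those shares. The part that this makeup of the GFP- fraction has in any receptor's difference was not tested. Replicate 5 stood apart, with a median over all gene probe sets of 7.03 to 7.46 on its 4 arrays, which are 1 of each group, against 6.06 to 6.39 on the other 16. The array least like its group was vehicle GFP- replicate 1, with a mean correlation of 0.895 with the others of its group, where every other array had 0.941 or more. The file holds no detection calls. Its 23 background controls had a median per array of 5.14 to 6.34, called the background range below, and a receptor at or under it may be at background. Single controls averaged from 2.52 to 7.14 over the arrays, and the 6.34 came from vehicle GFP+ replicate 5. The range is thus a rough guide.

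The 48 genes lie in 2 stretches of the chromosome with 285 other RefSeq genes between them. The first holds 4 receptors, Olfr55, Olfr239, Olfr1564 and Olfr63, and the second the remaining 44, from Olfr90 to Olfr136. By their older MOR names, which group receptors by sequence likeness, 16 belong to family MOR256, 10 to MOR218, 7 to MOR263, 5 to MOR156, 3 each to MOR250 and MOR267 and 1 each to MOR249 and MOR121, and 2 have no such name in the table used. No ligand is given for them here.

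Letters upstream of the genes are shown first for Olfr98, Olfr99 and Olfr108, relatives of family MOR156, and for Olfr101, because Olfr99 and its neighbour Olfr101 had the most different values of any neighbours and Olfr98 is a close relative of Olfr99. The windows are those of RefSeq for GRCm38.p6, 250 bases before and 50 after each gene's annotated start. Olfr98 is chr17:37263613-37263912 on the minus strand, Olfr99 is chr17:37280369-37280668 on the minus strand, Olfr108 is chr17:37445230-37445529 on the plus strand and Olfr101 is chr17:37300435-37300734 on the minus strand. Capitals mark CCCNNGGG, the core of the motif of Olf1/Ebf factors, and TAATNA or its reverse complement TNATTA, a core of many homeodomain factors such as Lhx2, with both strands searched and no overlap between the marked matches.
Olfr98: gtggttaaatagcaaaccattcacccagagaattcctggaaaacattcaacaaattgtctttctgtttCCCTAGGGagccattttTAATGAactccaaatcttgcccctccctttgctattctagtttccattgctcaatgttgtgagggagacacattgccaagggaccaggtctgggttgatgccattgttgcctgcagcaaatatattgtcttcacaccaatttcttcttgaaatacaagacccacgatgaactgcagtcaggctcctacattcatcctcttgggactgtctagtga
Olfr99: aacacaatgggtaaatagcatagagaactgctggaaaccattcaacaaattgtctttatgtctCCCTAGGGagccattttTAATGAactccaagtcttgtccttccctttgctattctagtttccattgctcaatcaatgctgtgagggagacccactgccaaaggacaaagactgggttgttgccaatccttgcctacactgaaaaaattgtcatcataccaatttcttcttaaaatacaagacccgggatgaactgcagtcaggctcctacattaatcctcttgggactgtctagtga
Olfr108: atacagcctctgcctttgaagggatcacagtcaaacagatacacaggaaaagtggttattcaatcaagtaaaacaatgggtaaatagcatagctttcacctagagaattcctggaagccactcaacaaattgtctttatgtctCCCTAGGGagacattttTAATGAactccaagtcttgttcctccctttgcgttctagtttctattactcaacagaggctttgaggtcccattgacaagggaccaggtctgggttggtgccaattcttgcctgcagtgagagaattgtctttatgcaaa
Olfr101: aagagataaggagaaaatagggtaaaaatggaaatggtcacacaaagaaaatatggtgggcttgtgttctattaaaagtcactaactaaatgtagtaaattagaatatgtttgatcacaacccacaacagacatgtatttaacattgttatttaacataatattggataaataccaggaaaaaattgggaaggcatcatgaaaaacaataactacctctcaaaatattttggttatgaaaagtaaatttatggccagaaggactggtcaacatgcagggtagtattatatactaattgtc
Olfr98, Olfr99 and Olfr108 each held CCCTAGGG and TAATGA in the same order and spacing, with CCCTAGGG starting 182, 187 and 107 bases before the annotated start. The Olfr101 window held neither. By global alignment the windows of Olfr98 and Olfr99 shared 256 identical bases, or 85.3% of 300, against 62.3% for Olfr99 and Olfr108. The gene models of Olfr98 and Olfr99 begin with ATG, and those of Olfr108 and Olfr101 do not. The positions of the marked letters and the 62.3% thus compare windows placed on unlike starts. Among 34 members with a window, 23 of which have ATG as the first bases of the gene model and so start at the coding sequence and not at a known transcription start, 16 (47.1%) held the homeodomain core and 5 (14.7%) the Olf1/Ebf core. Over 910 windows of other odorant receptors these shares were 66.6% and 2.64%, and over all 32851 windows 26.5% and 13.7%. The members' Olf1/Ebf matches were those of the related windows of Olfr98, Olfr99 and Olfr108, and those of Olfr93 and Olfr96, which lie after the annotated start. Their share is therefore not one of unrelated upstream matches. All matches are letters in a window, not known binding sites.

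The first question was which of these receptors were higher or lower in GFP+ than in GFP- cells. The difference within each pool was tested by limma over all probe sets, with Benjamini-Hochberg adjustment at 0.05. In odor pools 10 of the 48 rose in GFP+ cells, where 2.07% of all probe sets did, and 12 fell, where 5.82% did. In vehicle pools 13 rose, beside 2.26% of all probe sets, and 10 fell, beside 6.86%. The members' median log2 change was 0.01 in odor and 0.19 in vehicle pools, against 0.08 and 0.09 over all probe sets. Of the 1032 other odorant receptors 319 (30.9%) rose and 173 (16.8%) fell in odor pools, with a median of 0.44, and 351 (34.0%) rose and 160 (15.5%) fell in vehicle pools, with a median of 0.52. With each array centred on its median, which moved the median of all probe sets to 0.29 in odor and 0.33 in vehicle pools, 13 members rose and 10 fell in odor pools and 16 rose and 8 fell in vehicle pools. Without the 4 arrays of replicate 5, 9 rose and 9 fell in odor pools and 8 rose and 7 fell in vehicle pools. Without vehicle replicate 5 alone 6 fell in vehicle pools. All 4 group means lay above the background range for 33 members and within or below it for 3. In a bulk sample, fewer neurons with a given receptor and less of its RNA per neuron cannot be told apart.

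**Figure D1:**
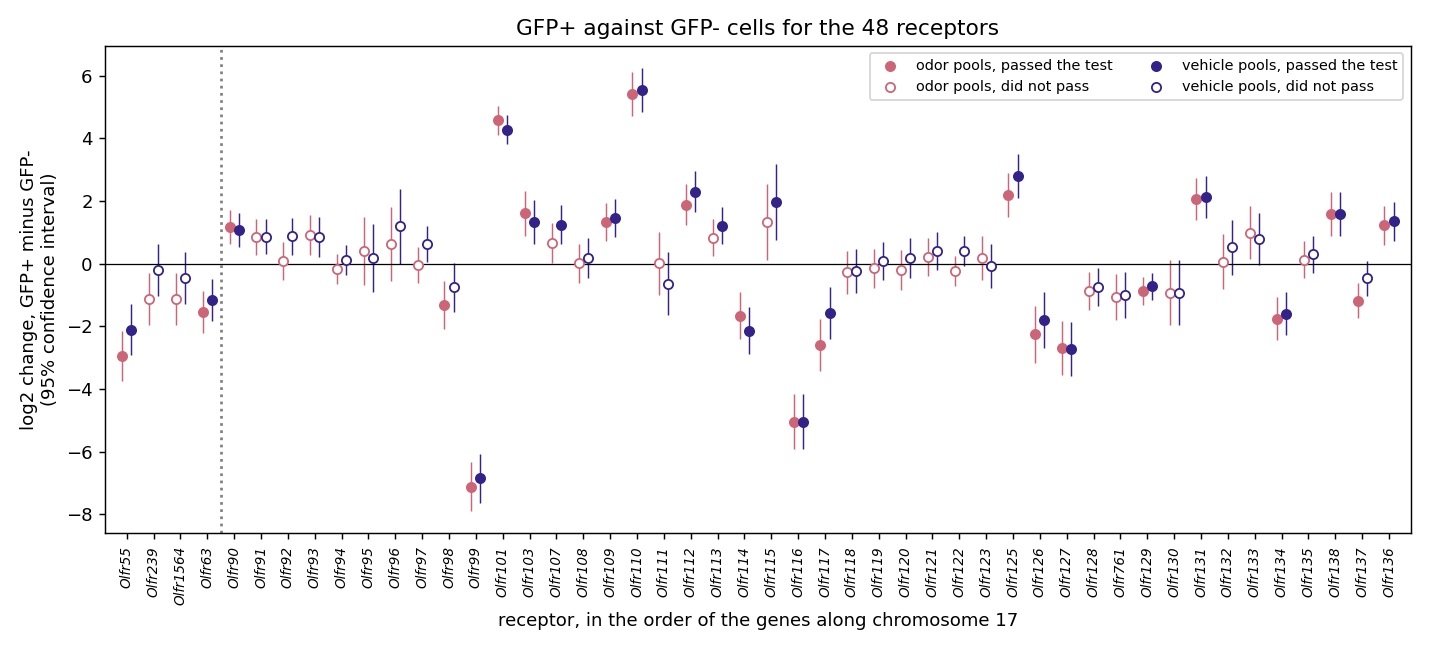
Log2 change of GFP+ minus GFP- signal for the 48 receptors, in gene order along chromosome 17, with 95% confidence intervals from limma (5 pools per condition; red, odor pools; blue, vehicle pools; filled, passed the test). The dotted line separates the 2 stretches; Olfr110 and Olfr101 stand highest, and Olfr99 and Olfr116 lowest, in both conditions.

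Receptors higher in GFP+ cells were led by Olfr110, of family MOR249. Its signal was 12.18, 11.49, 12.11, 11.25 and 12.81 in GFP+ cells of odor pools 1 to 5, against 7.02, 6.01, 6.38, 5.45 and 7.86 in their GFP- cells. It was 12.31, 11.81, 12.82, 11.78 and 13.09 in GFP+ cells of vehicle pools 1 to 5, against 7.67, 6.61, 5.48, 6.97 and 7.39 in their GFP- cells. Every GFP+ value lay above every GFP- value in both conditions, and the log2 change was 5.42 (SE 0.33, adjusted p = 1.75e-07) in odor pools and 5.54 (SE 0.33, adjusted p = 1.14e-07) in vehicle pools. Its GFP- means, 6.55 and 6.82, lay just above the background range. Olfr111, the next member along the chromosome, had means of 6.08 in GFP+ and 6.06 in GFP- cells of odor pools, and 5.72 and 6.36 in those of vehicle pools. These means lay in or just above the background range, with replicate 5 highest in all 4 groups, and Olfr111 did not pass (log2 change 0.01 and -0.64).

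Olfr101, of family MOR250, came next. Signals were 12.03, 11.26, 11.93, 11.63 and 12.91 in GFP+ cells of odor pools 1 to 5, against 7.72, 6.70, 7.14, 6.91 and 8.40 in their GFP- cells. They were 12.08, 10.97, 11.45, 10.78 and 13.08 in GFP+ cells of vehicle pools 1 to 5, against 7.42, 6.80, 7.33, 7.18 and 8.21 in their GFP- cells. The fractions did not overlap, the differences within pools ran from 4.31 to 4.78 in odor pools and from 3.60 to 4.87 in vehicle pools, and the log2 change was 4.58 (SE 0.21, adjusted p = 1.27e-08) in odor pools and 4.28 (SE 0.21, adjusted p = 2.18e-08) in vehicle pools. Both other MOR250 receptors also rose in both conditions, Olfr103 with 1.60 in odor and 1.33 in vehicle pools and Olfr109 with 1.34 and 1.46, so that 3 of 3 members of this family were called higher. The GFP- mean of Olfr103 in vehicle pools, 6.30, lay in the background range, with 2 of 5 values no higher than that range. Its change there may be a lower bound, which these values do not settle. Olfr103 was higher in 4 of 5 vehicle pools, and its vehicle call was lost without vehicle replicate 1 (1.09), 3 (1.17) or 5 (1.15).

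Within family MOR218 the largest rise was that of Olfr125. It had 9.46, 9.96, 10.15, 10.47 and 11.46 in GFP+ cells of odor pools 1 to 5, against 7.67, 7.87, 7.51, 7.95 and 9.49 in their GFP- cells. In vehicle pools it had 10.98, 9.83, 10.76, 10.80 and 11.50 in GFP+ cells, against 6.88, 8.16, 7.23, 9.08 and 8.52 in GFP- cells. The fractions overlapped by 1 value in odor pools, where replicate 5 of the GFP- group was higher than replicate 1 of the GFP+ group, and not in vehicle pools, and the log2 change was 2.20 (SE 0.33, adjusted p = 0.000518) in odor pools and 2.80 (SE 0.33, adjusted p = 6.29e-05) in vehicle pools. Olfr112, of the same family, had 11.66, 11.01, 11.88, 10.80 and 13.83 in GFP+ cells of odor pools 1 to 5, against 9.92, 8.63, 9.76, 9.73 and 11.70 in their GFP- cells. Its vehicle values were 11.64, 10.26, 11.56, 11.93 and 13.69 in GFP+ and 8.67, 9.43, 8.61, 9.93 and 10.97 in GFP- cells. Fractions overlapped across pools, with replicate 5 high in all 4 groups, but all 10 pools had the higher value in GFP+ cells, with a log2 change of 1.89 (SE 0.31, adjusted p = 0.00101) in odor pools and 2.30 (SE 0.31, adjusted p = 0.000182) in vehicle pools.

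Olfr131, a MOR256 receptor, lay between 11.87 and 12.59 in GFP+ and between 9.03 and 11.53 in GFP- cells of odor pools, without overlap, and between 10.92 and 13.44 in GFP+ and between 9.17 and 11.92 in GFP- cells of vehicle pools. It was higher in GFP+ cells in 5 of 5 pools of each condition, with a log2 change of 2.07 (SE 0.31, adjusted p = 0.000592) in odor pools and 2.14 (SE 0.31, adjusted p = 0.000376) in vehicle pools. Olfr138, of the same family, averaged 7.62 ± 1.17 and 6.03 ± 1.28 in GFP+ and GFP- cells of odor pools and 8.03 ± 1.11 and 6.44 ± 0.95 in those of vehicle pools. Its log2 change of 1.59 in odor and 1.59 in vehicle pools passed in both (adjusted p = 0.00654 and 0.00573 by limma), and without the arrays of replicate 5, which stood highest in each of its groups, the vehicle change was 1.34 and did not pass (adjusted p = 0.0597). Its GFP- mean of 6.03 in odor pools lay in the background range, with 4 of 5 values no higher than that range, and the odor change may be a lower bound. Olfr136 and Olfr90, MOR256 receptors at the end and the beginning of the second stretch, also rose in both conditions, with 1.23 and 1.35 and with 1.17 and 1.06 in odor and vehicle pools. The GFP- values of Olfr90 were no higher than the background range on all 10 arrays. In GFP+ cells 3 of 5 odor and 2 of 5 vehicle values were no higher either, with means of 6.55 and 6.67. Its changes are lower bounds only as far as its GFP+ signal is above background, which these values do not settle. Olfr136 did not pass in odor pools without odor replicate 2 (1.08) or 5 (1.10), nor in vehicle pools without the arrays of replicate 5 (1.12). Olfr90 did not pass in vehicle pools without vehicle replicate 4 (1.02) or 5 (0.80).

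Olfr115, another MOR218 receptor, varied widely over vehicle pools. Values were 13.47, 12.47, 13.27, 11.62 and 13.04 in GFP+ cells of odor pools 1 to 5, against 11.56, 11.18, 11.41, 10.31 and 12.77 in their GFP- cells. They were 15.24, 13.53, 14.17, 11.79 and 12.36 in GFP+ cells of vehicle pools 1 to 5, against 10.46, 12.53, 10.78, 10.97 and 12.54 in their GFP- cells. In vehicle pools the difference was 4.79 in pool 1 and -0.18 in pool 5, and the change of 1.96 (SE 0.56, adjusted p = 0.0438 by limma) did not pass without vehicle replicate 1 (1.26) or 3 (1.61), without any 1 odor pool, since the spread is estimated over both conditions, with array weights (1.04) or without the 3 pools whose arrays were least like their group (1.34). In odor pools, where it passed with array weights (1.38), it was 1.33 (SE 0.56, adjusted p = 0.244).

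**Figure D2:**
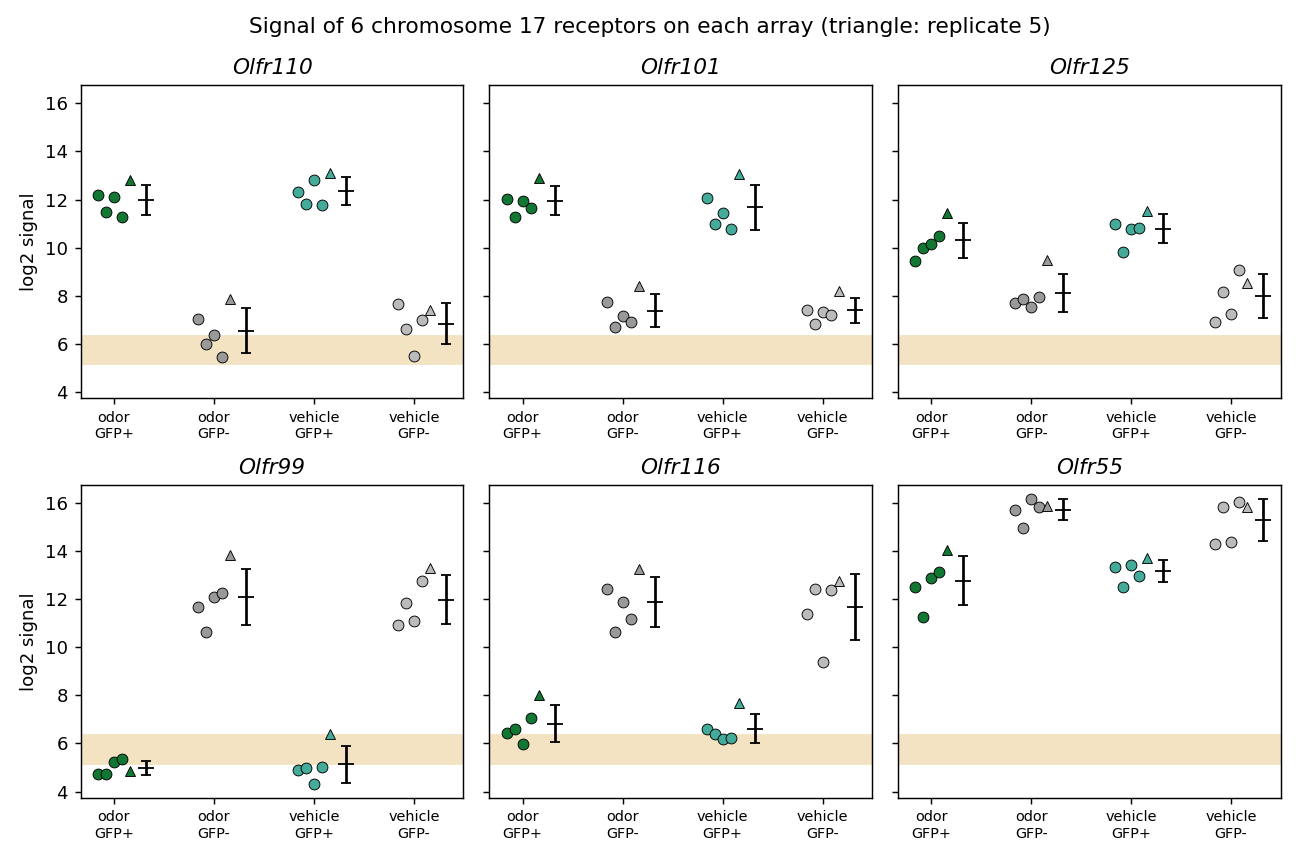
Log2 signal of 6 receptors on each array in the 4 groups (points, replicates 1 to 5 from left to right, triangle for replicate 5; bars, mean ± SD, n = 5; shaded band, background range of 5.14 to 6.34). Upper panels show receptors higher in GFP+ cells, lower panels receptors lower in GFP+ cells, among which Olfr99 lies at or near the background range on all GFP+ arrays.

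On the other side, Olfr99 had the largest fall of the 48. Its signal was 4.73, 4.73, 5.23, 5.35 and 4.84 in GFP+ cells of odor pools 1 to 5, against 11.67, 10.64, 12.08, 12.24 and 13.86 in their GFP- cells. It was 4.92, 4.97, 4.33, 5.03 and 6.41 in GFP+ cells of vehicle pools 1 to 5, against 10.92, 11.85, 11.11, 12.76 and 13.29 in their GFP- cells. All 10 GFP- values were at 10.64 or more, while GFP+ values were at 6.41 or less, with means of 4.98 in odor and 5.13 in vehicle pools that lay below the background range, so the changes are lower bounds in size. They came to -7.12 (SE 0.36, adjusted p = 3.22e-08) in odor pools and -6.85 (SE 0.36, adjusted p = 4.5e-08) in vehicle pools. Olfr98, its neighbour and the receptor with the most similar window above, averaged 7.07 ± 0.87 in GFP+ and 8.38 ± 1.22 in GFP- cells of odor pools, and 7.80 ± 1.31 and 8.55 ± 1.01 in those of vehicle pools. Olfr98's change was -1.32 (SE 0.36, adjusted p = 0.0398) in odor pools and -0.76 (SE 0.36, adjusted p = 0.297) in vehicle pools, and in odor pools it did not pass without odor replicate 1 (-1.11), 3 (-1.25) or 5 (-1.18), without vehicle replicate 3 (-1.32), with each array centred on its median (-1.11), or with the replicate number as a block (adjusted p = 0.162). Olfr108, which shares the marked letters, had means from 4.83 to 5.30 in the 4 groups, all within or below the background range.

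Olfr116, of family MOR218, was the next lowest. Signals were 6.45, 6.61, 5.98, 7.06 and 8.03 in GFP+ cells of odor pools 1 to 5, against 12.42, 10.64, 11.87, 11.18 and 13.28 in their GFP- cells. They were 6.59, 6.41, 6.19, 6.22 and 7.68 in GFP+ cells of vehicle pools 1 to 5, against 11.39, 12.41, 9.39, 12.39 and 12.77 in their GFP- cells. The fractions did not overlap in either condition, and the log2 change was -5.05 (SE 0.41, adjusted p = 2.59e-06) in odor pools and -5.05 (SE 0.41, adjusted p = 2.26e-06) in vehicle pools. Olfr115, the preceding member along the chromosome and of the same family, was the receptor described above with higher values in GFP+ cells of 9 of 10 pools.

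Olfr127 and Olfr114, also MOR218 receptors, were lower in GFP+ cells in all 10 pools. Olfr127 had 5.36, 4.37, 4.64, 4.61 and 5.75 in GFP+ cells of odor pools 1 to 5, against 7.55, 7.02, 6.74, 7.59 and 9.34 in their GFP- cells. Its vehicle values were 4.96, 4.72, 4.74, 4.75 and 4.49 in GFP+ and 6.44, 8.17, 6.32, 7.25 and 9.08 in GFP- cells. All of its GFP+ values lay within or below the background range, so its log2 changes, -2.70 (SE 0.39, adjusted p = 0.000459) in odor pools and -2.72 (SE 0.39, adjusted p = 0.000362) in vehicle pools, are lower bounds in size. Olfr114 averaged 6.03 ± 0.31 in GFP+ and 7.70 ± 0.51 in GFP- cells of odor pools, and 5.48 ± 0.36 and 7.62 ± 0.92 in those of vehicle pools (SD, n = 5 each), with log2 changes of -1.67 and -2.14. Both of its GFP+ means lay in the background range, with 4 of 5 values in odor and 5 of 5 in vehicle pools no higher than it. These changes too may be lower bounds in size. Olfr126 fell with -2.26 in odor and -1.80 in vehicle pools (adjusted p = 0.00283 and 0.0125 by limma), and the vehicle call was lost without vehicle replicate 4 (-1.71) or 5 (-1.41). Its GFP+ means, 6.44 in odor and 6.40 in vehicle pools, lay just above the background range. Of its GFP+ values 2 of 5 in odor and 3 of 5 in vehicle pools were no higher than that range. Family MOR218 thus held called receptors on both sides. In odor pools 2 of its 10 members rose and 4 fell, and in vehicle pools 4 rose and 4 fell.

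Of MOR256 receptors, Olfr134 and Olfr117 fell in both conditions. Olfr134 averaged 5.61 ± 0.62 in GFP+ and 7.37 ± 1.39 in GFP- cells of odor pools, and 5.81 ± 0.60 and 7.40 ± 1.01 in those of vehicle pools. Its changes of -1.75 and -1.59 may be lower bounds in size, as its GFP+ means lay in the background range. Olfr117 had 7.83, 8.54, 9.75, 8.99 and 9.64 in GFP+ cells of odor pools 1 to 5, against 10.64, 10.76, 11.34, 12.00 and 12.98 in their GFP- cells. Its vehicle values were 9.40, 9.25, 9.85, 9.27 and 9.47 in GFP+ and 9.26, 11.23, 10.67, 11.53 and 12.36 in GFP- cells. Replicate 1 of the vehicle GFP- group was lower than the other 4 and lower than the GFP+ sample of its own pool. The fractions did not overlap in odor pools but did in vehicle pools, and the change was -2.59 (SE 0.38, adjusted p = 0.000503) in odor pools and -1.56 (SE 0.38, adjusted p = 0.0183) in vehicle pools. The vehicle call was lost without vehicle replicate 4 (-1.39) or 5 (-1.23). Among all 16 MOR256 members 4 rose and 3 fell in odor pools, and 4 rose and 2 fell in vehicle pools.

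The 4 receptors of the first stretch had negative changes in both conditions. With the arrays centred on their medians, the vehicle change of Olfr239 turned to 0.04. Olfr55 had the largest of them. Its signals were 12.53, 11.24, 12.89, 13.15 and 14.04 in GFP+ cells of odor pools 1 to 5, against 15.72, 14.98, 16.18, 15.86 and 15.89 in their GFP- cells. Its vehicle values were 13.33, 12.51, 13.42, 12.96 and 13.71 in GFP+ and 14.30, 15.85, 14.37, 16.06 and 15.85 in GFP- cells. The fractions did not overlap, no value was near the background range, and the change was -2.96 (SE 0.37, adjusted p = 0.000127) in odor pools and -2.10 (SE 0.37, adjusted p = 0.00176) in vehicle pools. Olfr63 also fell, with -1.54 in odor and -1.16 in vehicle pools (adjusted p = 0.00622 and 0.0335 by limma), while Olfr239 (-1.12 and -0.20) and Olfr1564 (-1.13 and -0.45) did not pass. The vehicle call of Olfr63 was lost without vehicle replicate 2 (-0.92), 4 (-1.07) or 5 (-1.17), with centring (-0.92) and without the 3 least typical pools (-0.88). In odor pools Olfr239 and Olfr1564 passed as lower with quantile normalization (-1.22 and -1.19) and with array weights (-1.11 and -1.06), and Olfr239 also without vehicle replicate 1 or 2 (-1.12) and without the 3 least typical pools (adjusted p = 0.0331 by limma). Olfr55, Olfr239 and Olfr63 share family MOR267. Probes of such relatives can take up each other's RNA, and probe sequences were not used here.

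Family MOR263 lay close to 0. Its 7 members had log2 changes from -0.87 to 0.40 in odor pools and from -0.72 to 0.41 in vehicle pools, and 1 of them, Olfr129, passed as lower in both (adjusted p = 0.0147 and 0.0407 by limma). Neither of its calls held with the arrays centred on their medians (-0.66 in odor and -0.48 in vehicle pools) or with the replicate block (adjusted p = 0.0671 and 0.128). They were also lost without odor replicate 3, 4 or 5 in both conditions (odor changes of -0.76, -0.76 and -0.85), and the vehicle call without vehicle replicate 2 (-0.67), 3 (-0.70), 4 (-0.73) or 5 (-0.76). The 3 smallest changes of all members in vehicle pools belonged to Olfr123 (-0.07, 95% confidence interval -0.77 to 0.64), Olfr119 (0.09, -0.53 to 0.70) and Olfr94 (0.13, -0.36 to 0.61). Olfr94 had means from 5.76 to 5.94 in the 4 groups, within the background range. In family MOR156, Olfr107 rose in vehicle pools (1.25, adjusted p = 0.0141 by limma) with 0.67 in odor pools (adjusted p = 0.271), a vehicle call that was lost without vehicle replicate 3 (1.08) and without the 3 least typical pools (1.01). With array weights Olfr107 also passed in odor pools (0.67). Olfr97 had -0.03 in odor and 0.64 in vehicle pools and Olfr96, the member of MOR121, 0.62 and 1.19, and neither passed. Without vehicle replicate 2 the vehicle change of Olfr96 was 1.79 and passed (adjusted p = 0.0371), and its differences within vehicle pools ran from -1.22 to 4.20.

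**Figure D3:**
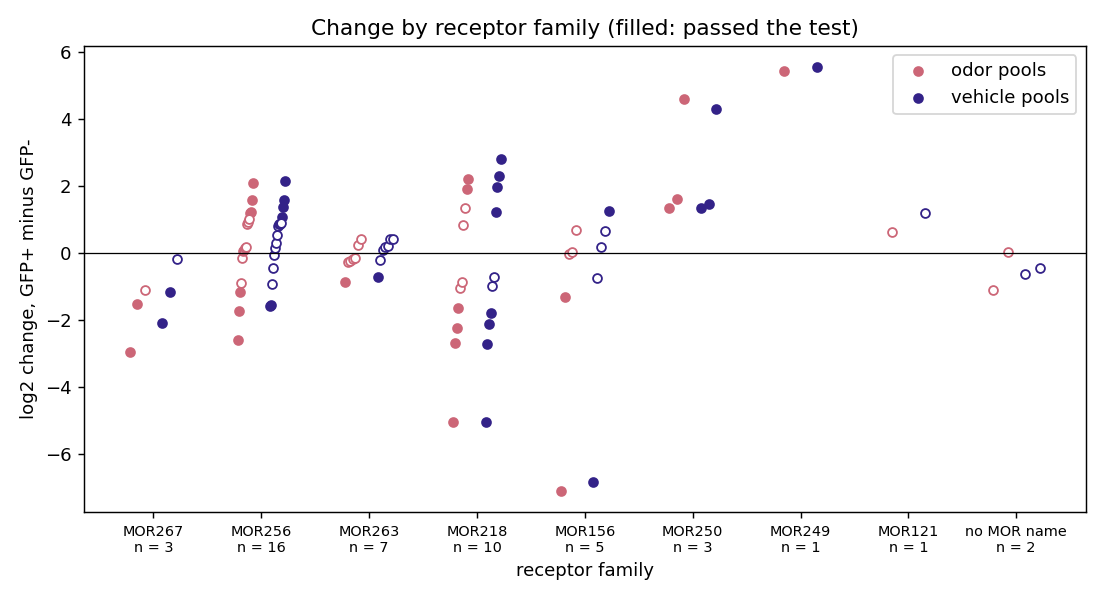
Log2 change of GFP+ minus GFP- signal by MOR family (1 point per receptor and condition; red, odor pools; blue, vehicle pools; filled, passed the limma test). MOR250 lies above 0 and MOR267 below it with all 3 members each (Olfr239 of MOR267 is at 0.04 in vehicle pools when arrays are centred on their medians), while MOR218 spreads from -5.05 to 2.80.

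Neighbours along the chromosome included receptors on opposite sides of the sort. In the second stretch 13 of 44 members rose and 8 fell in vehicle pools, so pairs called in opposite or in the same direction can arise at any position. Their share among other pairs was not counted, so the counts here say nothing about position. Of 46 pairs of receptors next to each other among the members, 5 held 1 receptor called higher and 1 called lower in vehicle pools, and 6 held 2 called in the same direction. Those 5 included Olfr99 with Olfr101 (-6.85 and 4.28), Olfr115 with Olfr116 (1.96 and -5.05) and Olfr125 with Olfr126 (2.80 and -1.80). The others were Olfr114 with Olfr115 (-2.14 and 1.96) and Olfr113 with Olfr114 (1.21 and -2.14). Olfr113 and Olfr115 did not pass in odor pools (adjusted p = 0.104 and 0.244 by limma). Their vehicle calls, and that of Olfr126, were lost when some single vehicle pools were left out. The median absolute difference between neighbours was 1.31 in odor and 1.28 in vehicle pools, against 1.51 and 1.53 over the other 906 pairs of the same stretch. Between members of 1 family it was 1.23 in odor and 1.13 in vehicle pools over 202 pairs, against 1.57 and 1.63 over the other 750. These are descriptions with no test, since pairs share receptors. Neighbours here are members with no other member between them, as Olfr123 and Olfr125 are because Olfr124 was left out. RefSeq lists 51 protein-coding receptor genes and 13 receptor pseudogenes on the chromosome, so genes that are not members may lie within other pairs too.

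The sort divided the receptors nearly alike in odor and vehicle pools, which came from different mice. All 10 receptors that rose in odor pools also rose in vehicle pools, and all 10 that fell in vehicle pools also fell in odor pools, and 41 of the 48 had the same sign in both. Over the 48 receptors the changes in odor and in vehicle pools correlated with Pearson's r at 0.98 and Spearman's rho at 0.96, given as a description across genes, which are not replicates. The 5 receptors that passed in 1 condition were Olfr98 and Olfr137, lower in odor pools, and Olfr107, Olfr113 and Olfr115, higher in vehicle pools. Olfr137 changed by -1.19 (SE 0.26, adjusted p = 0.00893) in odor pools and -0.46 (SE 0.26, adjusted p = 0.401) in vehicle pools, and its odor call was lost without odor replicate 1 (-1.04), with quantile normalization (-1.09) and without the arrays of replicate 5 (-1.19). Olfr113 changed by 0.83 (SE 0.27, adjusted p = 0.104) in odor pools and 1.21 (SE 0.27, adjusted p = 0.0107) in vehicle pools, and its vehicle call was lost without vehicle replicate 3 (0.93) and without the arrays of replicate 5 (1.24). Its odor value passed without vehicle replicate 2 (0.83), under median centring of the arrays (1.04) and with array weights (0.79).

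The main question of the design was whether the odor changed this division. For the difference between the change in odor and in vehicle pools, 0 of 48 members and 0% of all probe sets passed by limma, and 0 members and 269 of 22206 probe sets had an unadjusted p under 0.05. Differences ran from -1.03 for Olfr117 to 0.66 for Olfr111, with a median of -0.17, against 0.01 over all probe sets and -0.13 over other odorant receptors. The smallest p-values belonged to Olfr122 (-0.65, 95% confidence interval -1.33 to 0.02), Olfr137 (-0.72, -1.51 to 0.06) and Olfr92 (-0.78, -1.63 to 0.07), each with an adjusted p of 1.0. Intervals of 43 members lay within 2 log2 units of 0 on both sides, and those of 8 within 1, so the intervals of the other 40 reached beyond a 2-fold difference.

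Odor was then set directly against vehicle within each fraction, as the direct plot of both fractions shows. In GFP+ cells 0 of 48 members and 0% of all probe sets passed by limma, and 0 members and 61 probe sets had an unadjusted p under 0.05. Changes ran from -0.81 for Olfr97 to 0.55 for Olfr114, with a median of -0.15 against 0.03 over all probe sets, and 42 of 48 were under 0.5 in size. With the replicate number as a block, the members' median standard error was 0.223, against 0.453 without it. A term for replicate 5 alone gave 0.270, and leaving out its arrays 0.302, so the drop is not a measure of pairing. In the fit with the block 5 members and 820 probe sets had an unadjusted p under 0.05, and 0 members and 0 probe sets passed. Olfr97 was at 9.11, 8.90, 9.74, 11.15 and 11.70 in odor GFP+ samples, against 10.36, 9.78, 11.07, 11.22 and 12.22 in vehicle GFP+ samples, lower with odor in 5 of 5 numbered pairs while the groups overlapped. Its 95% confidence interval was -2.13 to 0.51 without the block, and with it the unadjusted p was 0.00297 and the adjusted p 0.993 by limma. Olfr114 was between 5.74 and 6.54 in odor GFP+ samples, against between 5.01 and 5.88 in vehicle GFP+ samples, most of them within the background range (95% confidence interval -0.01 to 1.12). Olfr117 had a change of -0.50 (-1.29 to 0.29). Olfr110 and Olfr101, the receptors with the highest changes between fractions, had -0.39 (-1.19 to 0.41) and 0.28 (-0.71 to 1.27).

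**Figure D4:**
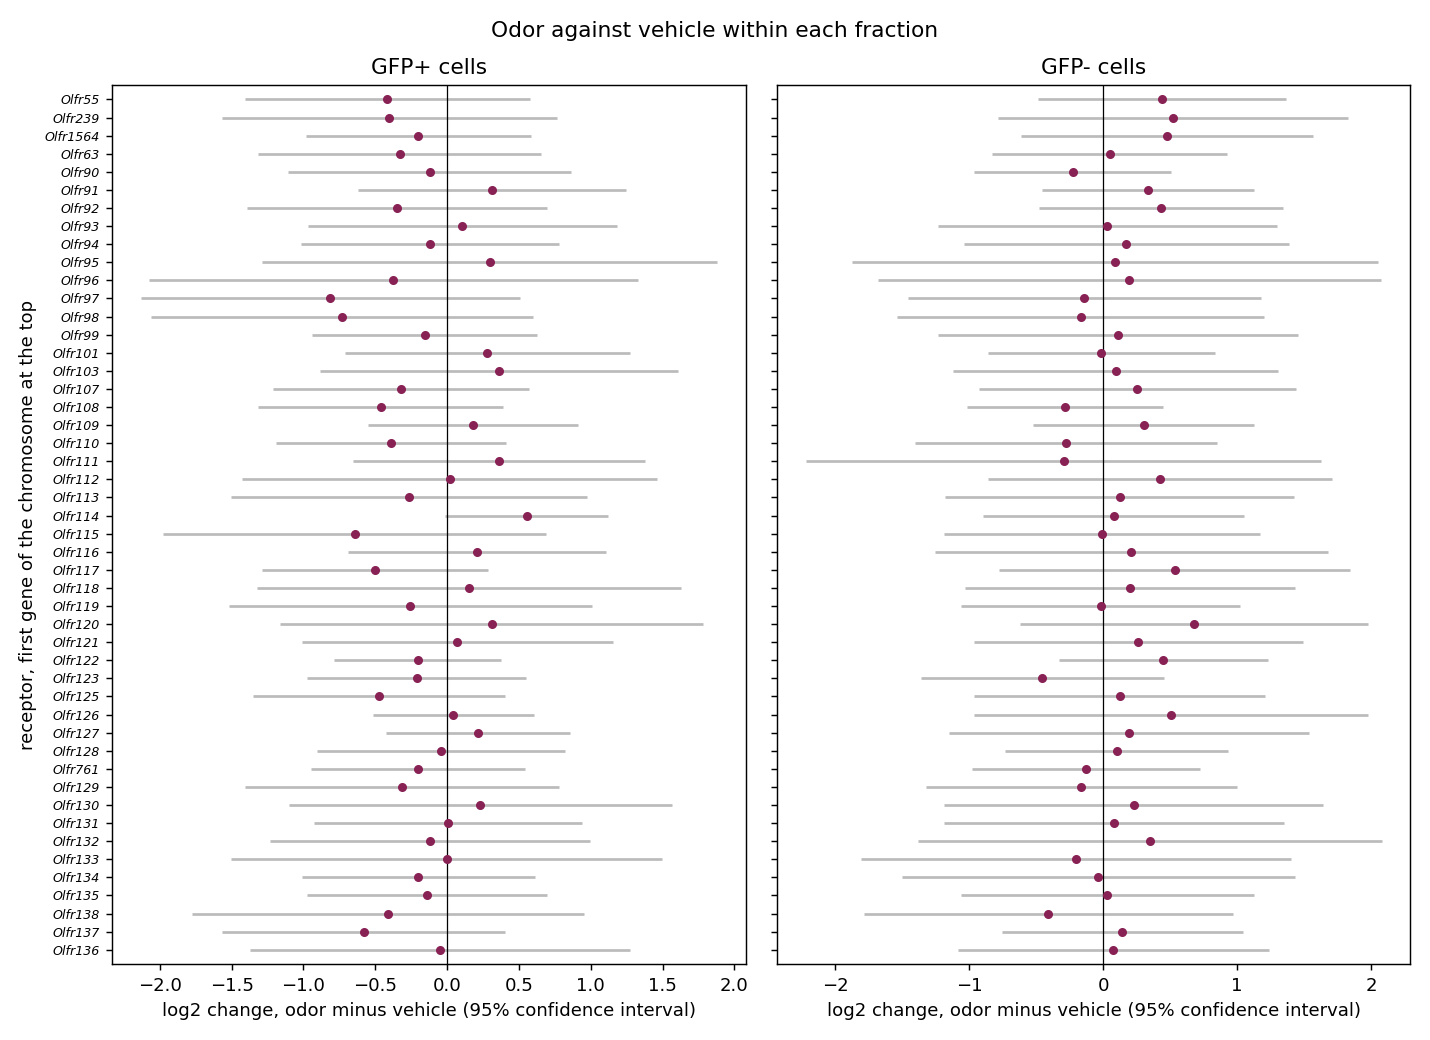
Log2 change of odor minus vehicle signal for the 48 receptors in GFP+ cells (left) and GFP- cells (right), with 95% confidence intervals from limma without the replicate block (5 against 5 samples), in gene order from the top. All points lie between -0.81 and 0.68, and every interval includes 0.

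In GFP- cells 0 of 48 members and 0% of all probe sets passed by limma, and 0 members and 30 probe sets had an unadjusted p under 0.05. Changes ran from -0.45 for Olfr123 to 0.68 for Olfr120, with a median of 0.11 against 0.02 over all probe sets. Olfr122 had 0.45 (95% confidence interval -0.33 to 1.23), Olfr120 0.68 (-0.62 to 1.98) and Olfr123 -0.45 (-1.36 to 0.45). Olfr99 and Olfr116, bright in this fraction, had 0.11 (-1.23 to 1.46) and 0.21 (-1.26 to 1.68). Intervals of 44 members lay within 2 log2 units of 0 and those of 5 within 1, against 45 and 11 in GFP+ cells.

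Beside the 5.82% of all probe sets that fell in odor and the 6.86% that fell in vehicle pools, the lists of other genes gave these counts. Of 18 measured genes of the transduction cascade 1 fell in each condition, Grk3, a kinase of receptor desensitization, with -0.79 in odor and -1.03 in vehicle pools, and the list's median was 0.37 and 0.45. Of 23 genes of receptor choice and trafficking 1 fell in each condition, Lbr, the lamin B receptor, with -1.94 in odor and -2.18 in vehicle pools, and medians were 0.15 and 0.17. Lbr is also known from granulocyte nuclei, and the fall of immune markers given above moves with it, in a part that was not tested. Among 34 measured genes known from the MHC-linked region of the chromosome 4 fell in each condition, H2-K1 (-3.74 in odor and -3.70 in vehicle pools), H2-D1 (-2.81 and -3.65), H2-T23 (-1.48 and -1.99) and H2-Q2 (-1.10 and -1.08), which encode MHC class I proteins, and the immune markers fell beside them. The group means of Grk3 and H2-Q2 lay at or below 5.45, within or under the background range, and so did the GFP+ means of H2-D1 (5.11 and 4.94). Trim15 (0.87) was higher in odor pools, with 0.46 in vehicle pools (adjusted p = 0.33), and the list's median was 0.06 in odor and 0.10 in vehicle pools.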

How the data were processed

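Labelled cRNA from 50 to 100 ng of RNA per sample was put on 1 Clariom S array each, per the labels' protocols. The scans went through Affymetrix Expression Console, per the submitters' processing notes, but how it corrected background and normalized the probes was not given in the sources at hand. Values stand as deposited by the authors, on a log2 scale to judge from their range, and were not normalized again. Of 28846 rows, 6640 control rows were left out and 22206 gene probe sets kept, 19572 with 1 symbol, 0 with several and 2634 with none. All 48 members matched RefSeq genes of GRCm38.p6 by Entrez ID, a table used for names, MOR families and gene order.

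The number of arrays, 20, limits the precision. No 2 arrays shared over 0.00901% of their values. Tests used limma 3.58.1 in R 4.3.3, on the 10 pool differences (GFP+ minus GFP-) in 1 fit, and on 10 samples per fraction without a block. The members and lists were chosen with earlier results of these data known. Genes named: the 7 largest vehicle changes in each direction past the threshold and the 3 smallest, the 3 largest odor changes in each direction, members that passed in 1 condition, and the 3 smallest p of each comparison with no call. Olfr63, Olfr90, Olfr96, Olfr103, Olfr108, Olfr109, Olfr111, Olfr129, Olfr136, Olfr239, Olfr1564, H2-Q2 and Trim15 were added after their values were seen, as were the choice of windows and the motif search. Protein sequences, planned as a comparison, were not used here.

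Odor and vehicle samples share replicate numbers. Deviations of same-numbered samples correlated at 0.25, 0.52, 0.35, 0.16 and 0.86 in GFP+ cells, all above the limit of 0.1. By that rule, and not from the labels, the numbers were treated as paired there. In GFP- cells (number 2 at -0.38) and for pool differences (number 2 at -0.48) they were not. The rule cannot show that the numbers pair. The high signal of replicate 5 moves the mean of both GFP+ groups, and so every deviation in them. Samples with unlike numbers were not compared, so whether the numbers pair was not settled. The fit was checked on simulated data with 100 changes of 4-fold and 100 of 2-fold. For the sort in vehicle pools 82 and 28 of them were recovered. For the odor effect on the sort 38 and 4 were, so most changes of these sizes would be missed there. The changed probe sets were drawn at random, and were fewer than the 501 that rose and 1523 that fell in the real vehicle pools. With fewer changes the adjustment is stricter. Median standard errors of the sort were 0.268 over all probe sets and 0.319 over the members, so the rates for the sort do not carry over to the members. Alternatives were quantile normalization, median centring, a filter on the dimmest 25%, an intensity trend, array weights, a replicate 5 term, the replicate block and leaving out samples.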

Additional observations from a re-analysis of the deposited data

Results flagged for a closer look

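Of 104 groups of 5 values of named receptors, 8 held a sample far from the other 4 by Dixon's test, where chance flags about 1 in 20, and in each of them it was the highest value and the array of replicate 5, whose median gene signal was above that of the other arrays. Olfr138 was at 9.70 in odor GFP+ replicate 5, with the other 4 at 6.92 to 7.25, and at 10.00 in vehicle GFP+ replicate 5, with the others at 7.41 to 7.62. Olfr125 was at 9.49 in odor GFP- replicate 5 (others 7.51 to 7.95). In the same sample Olfr92 was at 7.62 (others 5.74 to 6.25), Olfr97 at 12.17 (others 9.42 to 10.15) and Olfr120 at 9.29 (others 7.12 to 7.74). In vehicle GFP+ replicate 5 Olfr116 was at 7.68 (others 6.19 to 6.59) and Olfr92 at 8.49 (others 5.99 to 6.70).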

How the results depend on the processing

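Over 45 named gene results and 855 recomputed values, 804 kept direction and side of the threshold, 35 lost the call, 5 gained it and 11 changed sign. The intensity trend, the filter, the replicate 5 term and the block leave each log2 change as it was. So does leaving out a pool of the other condition, for the sort in 1 condition. Only the spread or the adjustment could move there, so part of the 804 was fixed in direction. Members higher in vehicle pools numbered 13, against 8 without the arrays of replicate 5, and members higher in odor pools 10, against 16 with array weights. With the replicate block 10 members rose and 10 fell in odor pools, 13 rose and 9 fell in vehicle pools, and 0 were called in each odor comparison. S100a5 (vehicle change 1.30, adjusted p = 0.124), Olfr98 and Olfr129 were the named calls lost with that block. For odor against vehicle in GFP+ cells, 1 probe set, none of the members, was called with array weights. Leaving out 1 pool at a time gave 9 to 11 members higher and 10 to 14 lower in odor pools, 9 to 14 higher and 6 to 10 lower in vehicle pools, 0 in each odor comparison, and medians of -0.094 to 0.094 and 0.026 to 0.44. Leaving out odor pool 2 and vehicle pools 1 and 2, chosen after seeing the data, gave 10 higher and 14 lower in odor and 11 and 8 in vehicle pools. Sign changes in vehicle pools were those of small changes: Olfr123 (-0.07) was at 0.032 with quantile normalization, 0.17 with centring, 0.072 with array weights and 0.35 without those 3 pools, Olfr119 (0.09) at -0.25 without replicate 5 and Olfr94 (0.13) at -0.11 with array weights. With 1 pool left out they ran over -0.30 to 0.24, -0.25 to 0.37 and -0.028 to 0.28, and Omp over -0.021 to 0.38. The causes were not tested. Receptors at background have no measured order.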

Other observations

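The 5 receptors with an unadjusted p under 0.05 for odor against vehicle in GFP+ cells with the replicate block, none of which passed after adjustment (adjusted p = 0.993 by limma for each), were the neighbours Olfr97 (-0.81) and Olfr98 (-0.73), Olfr137 (-0.58) and Olfr138 (-0.41), all lower with odor, and Olfr114 (0.55), chosen here by their p-values. Olfr98 was at 6.52, 6.05, 6.91, 7.62 and 8.23 in odor GFP+ samples, against 7.41, 6.52, 7.65, 7.40 and 10.00 in vehicle GFP+ samples, lower with odor in 4 of 5 numbered pairs.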
